A study of Mus musculus with 2 samples.

Results

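Receptors for serotonin, dopamine, noradrenaline and acetylcholine carry the slow, modulatory input that reaches the hippocampus from the brainstem and basal forebrain. Most of them are G-protein-coupled receptors. Those coupled to Gs raise cyclic AMP, those coupled to Gi lower it and open potassium channels, and those coupled to Gq activate phospholipase C. The serotonin Htr3 subunits and the nicotinic acetylcholine subunits form ion channels instead.

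The peaks of these receptor genes were described in a CUT&Tag peak list for PARIS, a zinc-finger transcriptional repressor that is a substrate of the ubiquitin ligase parkin and is encoded in the mouse by Zfp746. CUT&Tag uses an antibody to bring the transposase Tn5 to a chromatin protein, so that sequenced fragments mark where that protein lies. The members were all peaks to which the authors had assigned a gene of the families Htr (serotonin), Drd (dopamine), Adra and Adrb (alpha and beta adrenergic), Chrm (muscarinic) or Chrna and Chrnb (nicotinic alpha and beta subunits). They numbered 244 of 99782 annotated peaks (0.245%) and belonged to 42 of the 46 such genes in the reference. The rule used gene names only, not signal.

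Both libraries came from untreated hippocampus of C57BL/6J mice with the CamK-PARIS genotype, 1 prepared with anti-FLAG and 1 with IgG. The labels do not say what the genotype's name stands for, which cells carry the tagged protein, or the age or number of the mice. All peaks are those of the anti-FLAG library, called by the authors against the IgG library, of which no file was analysed here. With 1 library per antibody there was no replicate error and no test was made. Intervals are 95% intervals for counting error over peaks or genes, and the sequencing depth is unknown.

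The tissue label was checked against marker genes. A peak within 1 kb of a transcription start site (TSS) was assigned to 42.2% of 22028 protein-coding genes. It was assigned to 6 of 7 markers of hippocampal excitatory neurons (among them Prox1, Slc17a7 and Camk2a, but not Neurod6) and to 5 of 6 interneuron markers. The same held for 1 of 5 astrocyte, 1 of 6 oligodendrocyte, 2 of 5 microglial and 0 of 6 markers from outside the brain. High peaks at any distance were not limited to neuronal markers. The highest maximum signal was 413 for Slc17a7 and 349 for Camk2a. It was 343 for the oligodendrocyte gene Mbp and 328 for the astrocyte gene Slc1a3. No peak was assigned to Gja1, Sox10, Alb, Apoa1, Myh6 and Ins2, while Krt5 and Cd3e had 1 and 3. A peak is not a measure of expression, and the cell type behind any peak below cannot be told from these data.

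The values given for a peak are its width, the authors' maximum signal (the highest coverage in the peak, on the authors' scale), and the authors' signed distance from the region of maximum signal to the assigned TSS, negative when upstream. A peak is called of constant height when its total signal fills at least 99% of the rectangle of its width and maximum. The other peaks have a graded profile. Each peak was assigned by the authors to a TSS, which can lie over 100 kb away. Among the marker genes above, a graded peak within 1 kb was assigned to 5 of 7 excitatory and 2 of 6 interneuron markers. The same held for 1 of 6 oligodendrocyte markers and for none of the astrocyte, microglial or outside-brain markers, against 28.6% of protein-coding genes. These marker counts are small and were not tested.

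The DNA under the highest peak of each family is shown first, because these windows differ in kind. Each is a window of 200 bp centred where the signal is highest, from GRCm38.p6 (the mm10 build), on the strand of the gene, with every CpG in capitals. The Htr6 window is chr4:139067820-139068019 (minus strand), the Chrna1 window chr2:73561335-73561534 (minus), the Adra1a window chr14:66527159-66527358 (plus), the Adrb1 window chr19:56721564-56721763 (plus), the Chrnb1 window chr11:69795293-69795492 (minus) and the Drd5 window chr5:38328371-38328570 (plus). The highest Chrm3 window overlaps an annotated UTR and is not printed.
Htr6: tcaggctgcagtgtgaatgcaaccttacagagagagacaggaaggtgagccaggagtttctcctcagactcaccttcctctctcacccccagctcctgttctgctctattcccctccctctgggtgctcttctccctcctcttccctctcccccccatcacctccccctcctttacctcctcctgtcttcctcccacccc
Chrna1: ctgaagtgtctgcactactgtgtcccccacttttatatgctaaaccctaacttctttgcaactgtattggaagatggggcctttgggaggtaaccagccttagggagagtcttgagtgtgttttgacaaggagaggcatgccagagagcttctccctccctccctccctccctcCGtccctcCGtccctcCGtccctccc
Adra1a: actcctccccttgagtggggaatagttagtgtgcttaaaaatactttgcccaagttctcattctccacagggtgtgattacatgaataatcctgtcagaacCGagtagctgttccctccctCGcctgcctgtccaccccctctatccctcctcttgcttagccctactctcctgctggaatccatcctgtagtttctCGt
Adrb1: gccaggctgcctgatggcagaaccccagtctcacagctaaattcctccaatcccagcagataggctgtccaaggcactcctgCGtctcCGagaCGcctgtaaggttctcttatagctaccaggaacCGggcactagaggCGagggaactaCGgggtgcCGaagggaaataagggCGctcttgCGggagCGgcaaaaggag
Chrnb1: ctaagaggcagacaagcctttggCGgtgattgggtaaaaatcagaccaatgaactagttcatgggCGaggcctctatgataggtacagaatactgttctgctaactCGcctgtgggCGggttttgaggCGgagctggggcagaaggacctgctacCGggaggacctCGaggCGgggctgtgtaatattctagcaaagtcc
Drd5: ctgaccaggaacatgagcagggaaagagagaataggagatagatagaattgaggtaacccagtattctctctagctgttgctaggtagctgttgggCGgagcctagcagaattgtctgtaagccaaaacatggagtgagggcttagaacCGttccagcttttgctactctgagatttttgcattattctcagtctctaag
The Htr6 window holds 0 CpG, and 71.5% of its bases are C or T. Its longest unbroken run of C and T is 30 bases. The Chrna1 window ends in repeated ccct units with a run of 27 bases and holds 3 CpG. The Adrb1 window holds 10 CpG and the Chrnb1 window 8, with longest runs of C and T, or of A and G, of 9 and 7 bases. The Adra1a window holds 3 CpG and is 64.0% C or T, and the Drd5 window holds 2 CpG.

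The pyrimidine-rich Htr6 sequence led to a count over all members, a measure chosen after the windows had been seen. A run of at least 20 bases of C and T on either strand was present in 28 of 244 receptor windows (11.5%, 8.06 to 16.1), against 9.48% of all 99705 windows on chromosomes 1 to 19, X and Y. Among receptor peaks that were not of constant height it was present in 15 of 78 (19.2%, 12 to 29.3), against 13.6% of all such peaks. The longest runs were 149 and 124 bases at 2 Htr1f peaks and 113 at an Adra1b peak, in windows of which 92%, 85.5% and 58.5% is repeat-masked in the reference. The interval for all members spans the value of the whole list.

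The receptor peaks lay farther from gene starts than the list as a whole. Of the 244 peaks, 26 lay within 1 kb of their TSS (10.7%, 7.38 to 15.2), against 15.3% of all peaks. Among graded peaks alone the share was 20.5% (13.0 to 30.8) against 23.2%, so there the interval spans the list's value. The promoter class, within 3 kb, held 38 receptor peaks (15.6%, 11.6 to 20.7) against 24.6%. Distal intergenic positions held 110 (45.1%, 39.0 to 51.4) against 31.9%, and introns held 87 (35.7%, 29.9 to 41.8) against 38.0%. A distance of more than 100 kb was found for 53 peaks (21.7%, 17.0 to 27.3) against 15.2%. Of the 53, 22 belonged to Adra, 15 to Chrm and 12 to Htr genes. All these intervals count each peak singly, although 9 genes held 126 of the 244 peaks. Peaks of the same gene are not independent, so the intervals are too narrow for a statement about receptor genes. The median distance was 29554.5 bp, and 14783 bp over all annotated peaks.

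Their signal was close to that of the list. The maximum signal had a median of 97 (88 to 102), quartiles at 67 and 127.5, and extremes of 9 and 417, while the median of all peaks was 101. The top 10% of all peaks by maximum began at 189 and held 16 receptor peaks (6.56%, 4.08 to 10.4) against 10.1% of all. Constant height was found for 166 receptor peaks (68.0%, 61.9 to 73.6) and 63.3% of all. The median width was 391 bp (331 to 438), against 363 bp. The interval of each of these 4 values spans the value of the whole list.

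**Figure D1:**
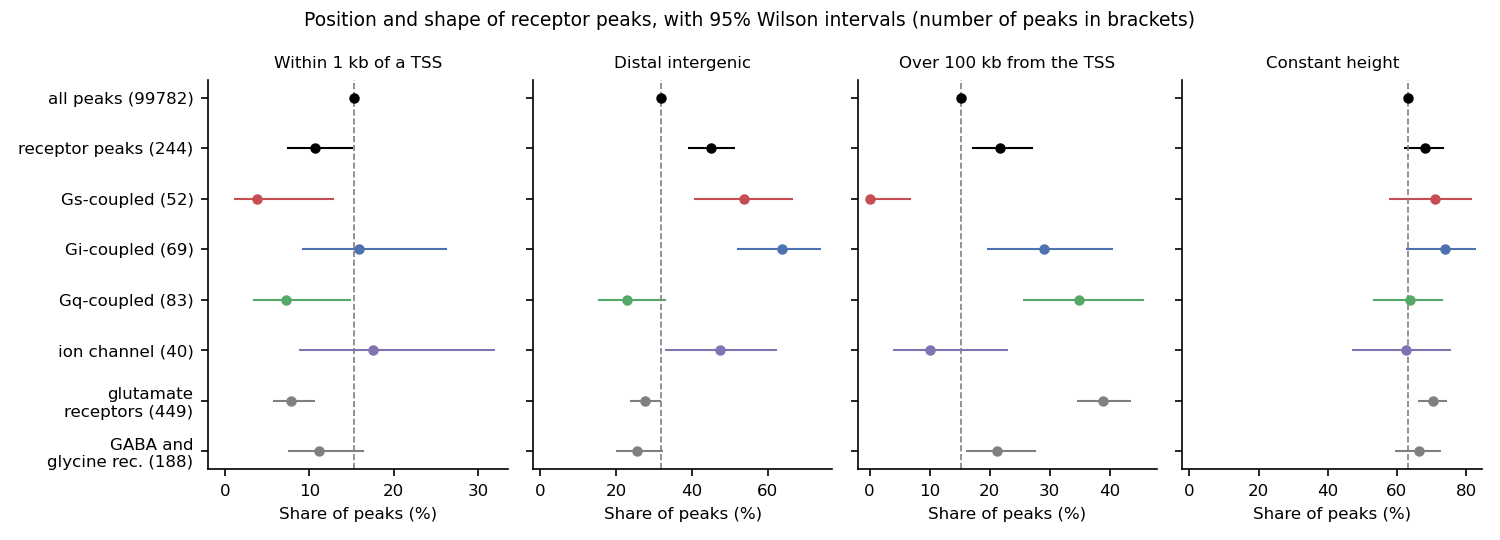
Share of peaks (%, points) with 95% Wilson intervals (lines) that lay within 1 kb of a TSS, in distal intergenic positions, over 100 kb from the TSS, or had constant height. Rows are all peaks, receptor peaks, their 4 signalling classes and 2 other receptor groups, and the dashed line is the share of all peaks. Receptor peaks were at 10.7% near a TSS and 45.1% intergenic, against 15.3% and 31.9% of all peaks.

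By gene rather than by peak, 42 of 46 receptor genes had an assigned peak (91.3%, 79.7 to 96.6), against 72.2% of 22028 protein-coding genes. A peak within 1 kb of the TSS was assigned to 23 of 46 (50%, 36.1 to 63.9) against 42.2%. Such a peak with a graded profile was assigned to 14 of 46 (30.4%, 19.1 to 44.8) against 28.6%. Any peak overlapping the 1 kb around a TSS of the reference was found for 23 of 46 genes, against 47.4% of all protein-coding genes. The interval spans the background in the last 3 of these counts.

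The 23 genes with a peak near the TSS were unevenly spread over the signalling classes, though classes this small cannot be separated by their intervals. They included 9 of 14 Gi-coupled genes (64.3%, 38.8 to 83.7), 5 of 9 Gq-coupled genes (55.6%, 26.7 to 81.1), 7 of 15 channel subunits (46.7%, 24.8 to 69.9) and 2 of 8 Gs-coupled genes (25%, 7.15 to 59.1). By family they were 6 of 14 Htr, 3 of 5 Drd, 5 of 6 Adra, 1 of 3 Adrb, 2 of 5 Chrm, 4 of 9 Chrna and 2 of 4 Chrnb genes. The differences between classes were not tested.

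**Figure D2:**
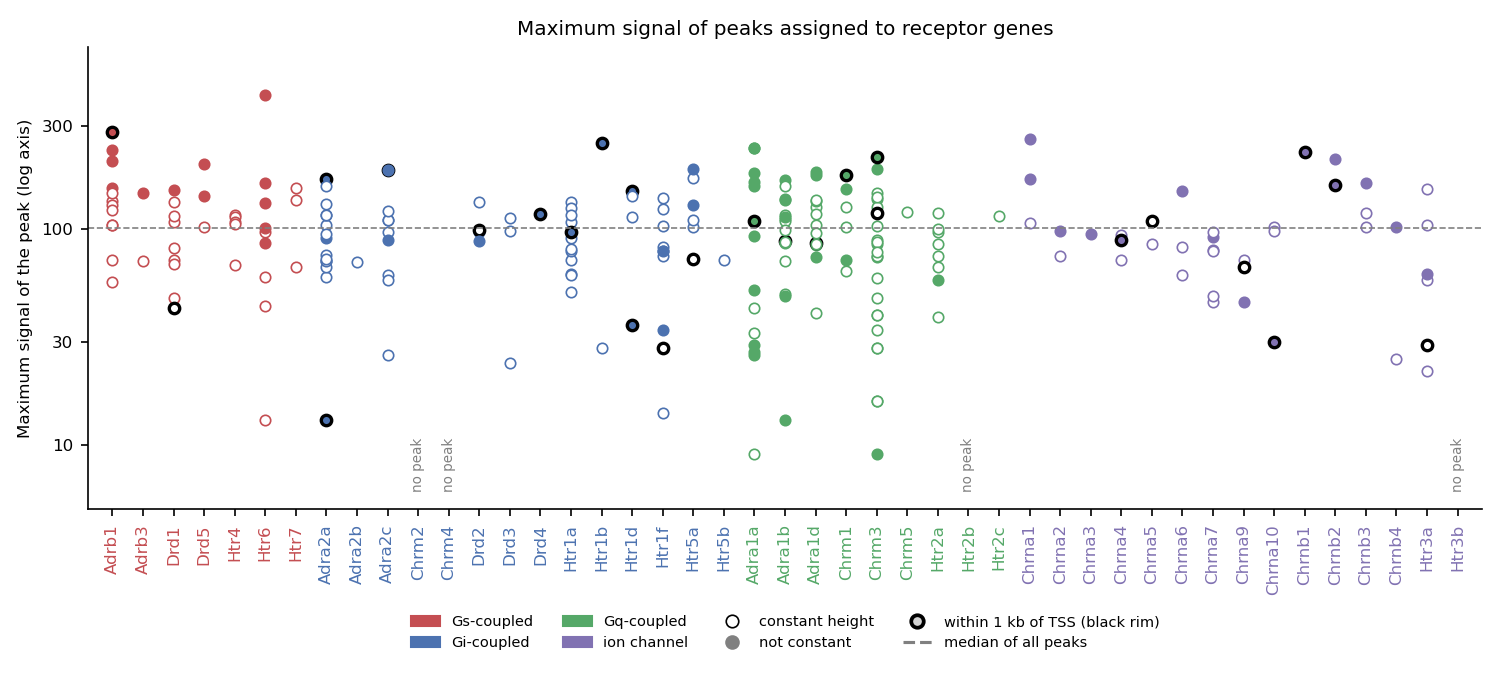
Maximum signal of every assigned peak (log axis, authors' scale) for 45 of the 46 receptor genes, grouped and coloured by signalling class. Open circles are constant-height peaks, filled circles graded peaks, black rims mark peaks within 1 kb of a TSS, and the dashed line is the median of all peaks (101). The highest peak, at 417, belongs to Htr6, and Chrm2, Chrm4, Htr2b and Htr3b have no peak.

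Among the Gs-coupled receptors, the beta-1 adrenergic receptor gene Adrb1 had the highest peak at a gene start. That peak, chr19:56720802-56722373, is 1572 bp wide with a maximum of 281 and a total signal of 156003, its maximum lies at -532 bp from the TSS, and it was graded. Its maximum ranks at percentile 97.1 of all peaks. Adrb1 had 12 peaks, and the other graded ones reached 234 at -60973 bp, 207 at -11444 bp and 155 at -49161 bp. The other 8 Adrb1 peaks were of constant height, with maxima from 57 to 147. Adrb3 had 2 peaks, the nearer at 1344 bp with a maximum of 147.

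The highest receptor peak of all lay inside Htr6, a serotonin receptor found almost only in the brain. It covers chr4:139067216-139068866 (1651 bp), in intron 2 of 3 of the assigned transcript and 6870 bp downstream of the TSS. Its maximum was 417 (percentile 99.3) and its total signal 261876. The nearest Htr6 peak to the TSS lay at -1372 bp, with a maximum of 101, so no Htr6 peak was within 1 kb. Of the 9 peaks assigned to Htr6, 5 lay inside the neighbouring gene Tmco4 and 1 inside Nbl1. The large count therefore does not describe the Htr6 locus alone.

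The other Gs-coupled genes had lower signal at their starts. Drd1, the dopamine D1 receptor, had a constant-height peak of 155 bp over an annotated TSS with a maximum of 43, which ranks at percentile 12.7. Its highest peak was 152 at 61158 bp, in a group of 5 peaks between 61158 and 67168 bp. Drd5 had 3 peaks with maxima of 143, 102 and 200, all outside genes, the highest at chr5:38328131-38328539. The serotonin receptors Htr4 and Htr7 had 5 and 3 peaks, all of constant height, and the highest were 116 and 155.

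Among the Gi-coupled receptors, the presynaptic serotonin receptor gene Htr1b had the widest peak of all members. It covers chr9:81632850-81634529 (1680 bp), reaches 250 (percentile 95.7) and has its maximum 294 bp downstream of a TSS. The window at that maximum holds 11 CpG and a run of 49 bases of C and T, or of A and G. The only other Htr1b peak was of constant height with a maximum of 28, at -42563 bp. The gene has 1162.81 kb and 229.842 kb to its neighbouring protein-coding genes. A constant-height peak of 142 lay 7724 bp along from the 5′ end of Htr1b and was assigned to D430036J16Rik.

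The alpha-2 adrenergic receptors, which act as autoreceptors on noradrenergic terminals, had their near peaks inside the gene. Adra2a had 2 graded peaks within 1 kb: a maximum of 13 at 198 bp and of 170 at 641 bp. The other 13 of its 15 peaks reached out to 463826 bp downstream, all but 1 of constant height. Adra2c had a graded peak of 188 at 632 bp, in a window of 86.0% GC with 31 CpG, the most GC-rich of all member windows. A second Adra2c peak of 189 lay at 35673 bp. Adra2b had a single peak, of 70, at 9650 bp.

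The dopamine and the other serotonin receptors of this class had intermediate or low peaks near their starts. Drd4 had a single graded peak of 118, with its maximum at -301 bp from a TSS inside the gene. Drd2, the target of antipsychotic drugs, had a constant-height peak of 99 at -281 bp. Drd3 had 3 constant-height peaks, the nearest at 1496 bp with a maximum of 98. Htr1a, the serotonin receptor with high expression in the hippocampus, had a graded peak of 97 at 521 bp. Htr1d had graded peaks of 151 at -428 bp and 36 at 533 bp, both around the same TSS. Htr5a had a constant-height peak of 73 at 655 bp and Htr1f one of 28 over its TSS, while the single Htr5b peak, of 72, lay at -7316 bp.

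Htr1a shows how far from its gene an assigned peak can lie. Of its 12 peaks, 10 were of constant height and 2, both graded, lay within 3 kb of the TSS. The farthest, with a maximum of 116, lay 693901 bp from the TSS. The gene is 4.484 kb long, and its neighbour on that side is 1346.32 kb away.

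Among the Gq-coupled receptors, the muscarinic genes Chrm1, the main muscarinic receptor of hippocampal pyramidal cells, and Chrm3, best known from smooth muscle and glands, had graded peaks at their starts. The Chrm1 peak, chr19:8663508-8665013, is 1506 bp wide with a maximum of 179 at 97 bp. The highest Chrm3 peak, chr13:10360438-10361025, is 588 bp wide, reaches 217 and covers a TSS, and a constant-height peak of 119 lay 598 bp from a TSS. Chrm3 had 24 peaks, the most of any receptor gene. Of these, 19 were of constant height, 15 lay more than 100 kb from the assigned TSS, and 10 lay only inside the non-coding genes Gm26861, Gm36525 and Gm47408. Chrm5 had 1 peak, of 120, at 4013 bp.

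The alpha-1 adrenergic receptors were rich in peaks but modest at their starts. Adra1a had a graded peak of 109 at 99 bp, Adra1b a constant-height peak of 88 at -164 bp of an internal TSS, and Adra1d a constant-height peak of 86 at 383 bp. The 2 highest Adra1a peaks, both at 238 and both graded, lay far upstream at -107992 bp (chr14:66526493-66527557) and -77300 bp (chr14:66557638-66558622), outside all genes. Of the 14 Adra1a peaks 11 were graded, the largest number in any receptor gene, with 6 inside the gene. Adra1b had 16 peaks, of which 5 lay inside the non-coding gene Gm12153. Adra1d had 13, of which 5 lay inside the non-coding gene Gm14280.

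The serotonin receptors of this class had few or distant peaks. Htr2a, the target of psychedelic drugs, had 8 peaks with maxima from 39 to 119, none nearer than 7768 bp. Htr2c on the X chromosome had 1 assigned peak, of 115, at -226507 bp, and 2 peaks inside the gene body that the authors assigned elsewhere. Htr2b had none.

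Among the channel subunits, Chrnb1 and Chrnb2 had the highest peaks within 1 kb of a TSS. Chrnb1, a subunit of the muscle receptor, had a single peak, chr11:69795280-69795828, with a maximum of 227 at 492 bp. Chrnb2, which forms the main brain nicotinic receptor with Chrna4, had a graded peak of 160 at -236 bp of a TSS inside the gene and 1 of 212 at 3297 bp. Chrna4 had a graded peak of 89 at 666 bp in a window with 0 CpG. Chrna5 had a constant-height peak of 109 over its TSS, Chrna9 one of 67 at -118 bp, in a window that is 100% repeat-masked, and Htr3a one of 29 at 82 bp. Chrna10 had a graded peak of 30 at 307 bp.

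The remaining subunits had peaks only beyond 1 kb. Chrna7, which forms the homomeric receptor common in hippocampus, had 6 peaks with maxima from 46 to 97, the nearest at -18137 bp. Chrna1, the muscle alpha subunit, had the highest nicotinic peak: 262 at chr2:73560761-73562046, 18900 bp downstream of the TSS and outside the gene. Its other 2 peaks reached 170 at 7823 bp and 107 at 20348 bp. A graded peak of 260 lay nearer, 4395 bp upstream of the 5′ end of Chrna1, but was assigned to Chrna1os. Chrnb3 had 3 peaks, the highest 163 at -6561 bp. Chrna2, Chrna3, Chrna6 and Chrnb4 had 2, 1, 3 and 2 peaks, with highest maxima of 98, 95, 151 and 102. The single Chrna3 peak lay inside Chrnb4, and 1 of the Chrna6 peaks inside Chrnb3, since these subunit genes lie in clusters.

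**Figure D3:**
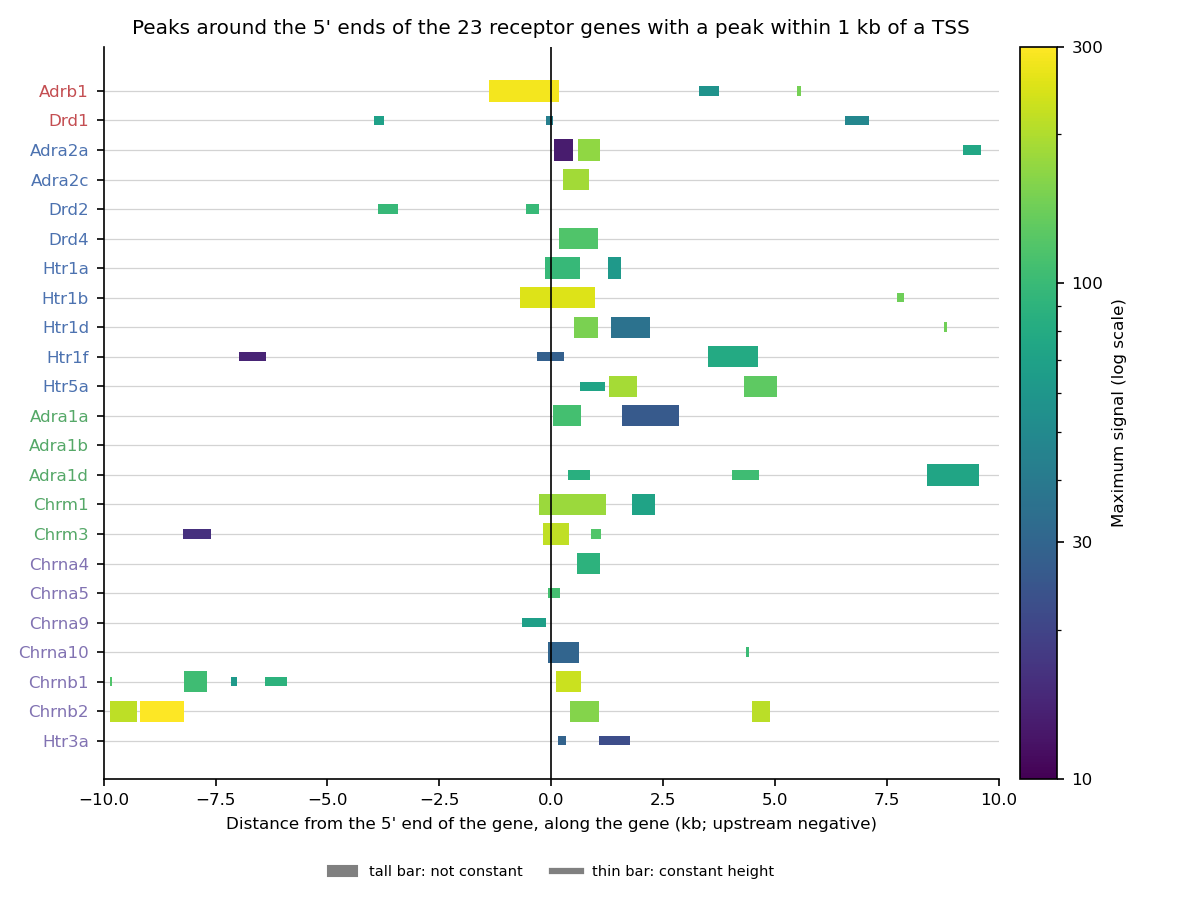
Peaks within 10 kb of the 5′ end of the 23 receptor genes that had an assigned peak within 1 kb of a TSS, whichever gene the authors assigned them to. The x axis is distance along the gene (kb, upstream negative), bar length is peak width, colour is maximum signal (log scale), tall bars are graded and thin bars constant-height peaks. Adrb1 and Htr1b carry the highest bars across the 5′ end, and the near peak of Adra1b lies at an internal TSS outside the map.

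The 26 near peaks lay more often downstream than upstream. The maximum was downstream of the TSS in 15, upstream in 7 and at the TSS in 4. All 15282 near peaks of the list had 39.7% downstream, 40.6% upstream and 19.8% at the TSS. The 26 peaks belonged to 23 genes. No interval was calculated for these positions, so no difference from the list is claimed. Of the 26, 16 were graded (61.5%, 42.5 to 77.6), against 55.5% of all near peaks. Their median maximum was 104 (73 to 160) against 116, and their median width 551 bp (487 to 655) against 483 bp. Values just inside the 1 kb limit were Adra2c at 632 bp (188), Adra2a at 641 bp (170), Htr5a at 655 bp (73) and Chrna4 at 666 bp (89). Just outside it lay Htr3a at 1001 bp (22), Adrb3 at 1344 bp (147) and Htr6 at -1372 bp (101).

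**Figure D4:**
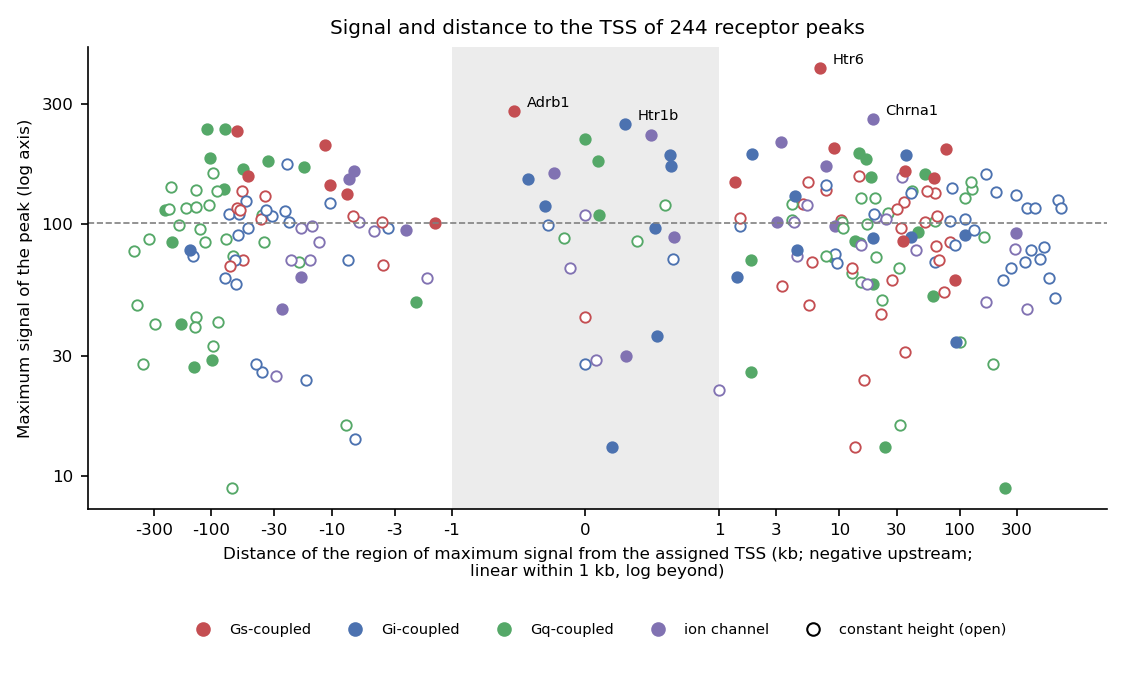
Maximum signal (log axis) against signed distance to the assigned TSS (kb, linear within 1 kb and log beyond) for the 244 receptor peaks, coloured by class, with open circles for constant-height peaks. Grey shading marks 1 kb to either side of the TSS and the dashed line the median of all peaks. High peaks occur both near the TSS (Adrb1 281, Htr1b 250) and beyond it (Htr6 417, Chrna1 262).

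The 4 receptor genes without an assigned peak were 2 muscarinic and 2 serotonin genes. Chrm2 and Chrm4 are the Gi-coupled muscarinic receptors. The nearest peak to Chrm2 was of constant height, lay 18904 bp from its TSS and was assigned to Mir490, and 3 peaks lay inside the Chrm2 gene body. Chrm4 is 1.44 kb long, and a graded peak of 225 overlapped its body at chr2:91928358-91929416, 1109 bp from the TSS, but was assigned to Mdk. A constant-height peak of 45, lying 4953 bp upstream and also assigned to Mdk, overlapped the RefSeq promoter of Chrm4. So Chrm4 lacked an assigned peak without lacking signal. The nearest peaks to Htr2b and Htr3b lay 11482 and 15307 bp away, were assigned to Psmd1 and Usp28, and had maxima of 44 and 85.

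Few genes held most of the peaks. The 9 genes with at least 10 peaks (Chrm3, Adra1b, Adra2a, Adra1a, Adra1d, Htr1a, Adrb1, Htr1f and Adra2c) held 126 of 244, the 18 with at least 5 held 190, and 7 genes had 1. Such counts are given beside the room around each gene. The territory of a gene, from the end of its left neighbour to the start of its right neighbour, was 1787.77 kb for Chrm3 and 1034.14 kb for Adra2a, which gives 1.34 and 1.45 peaks per 100 kb. It was 23.114 kb for Htr6 (38.9 peaks per 100 kb, 6 of its 9 peaks lying in the neighbours) and 183.979 kb for Adrb1 (6.52). Htr1b and Htr7, with 0.143 and 0.271, and Htr2c, with 0.0532, were among the lowest.

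Counting inside gene bodies gives a measure free of the assignment. The 46 receptor gene bodies overlapped 122 peaks in 36 genes, so 10 genes had none (21.7%), against 37.0% of protein-coding genes. Peaks per length were above the density of the chromosome in 29 of 46 receptor genes (63.0%), against 50.4% of protein-coding genes. No interval was calculated for these gene-body shares, so no difference from the background is claimed. Chrm1 had 6 peaks in 19.799 kb (3.03 per 10 kb, against 0.437 on chromosome 19), and Chrm3 18 in 485.362 kb (0.371 per 10 kb, against 0.344 on chromosome 13). Of the 244 summits, 118 lay outside all genes, 91 inside the assigned receptor gene, 26 only inside a non-coding gene and 9 inside another protein-coding gene.

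Peaks assigned to the signalling classes lay in different places, but a few genes held many of them. Introns held 52 of 83 Gq-coupled peaks (62.7%, 51.9 to 72.3) and 11 of 69 Gi-coupled peaks (15.9%, 9.14 to 26.3). Distal intergenic positions held 44 of the Gi-coupled peaks (63.8%, 52.0 to 74.1) and 19 of the Gq-coupled peaks (22.9%, 15.2 to 33.0). Of those 44, Adra2a held 13, Adra2c 9 and Htr1a 8. The intervals count peaks and not genes, and no difference between classes was tested. The median gene length was 68.655 kb for Gq-coupled and 9.239 kb for Gi-coupled genes, and its part in this difference was not tested. Of the 52 Gq-coupled intronic peaks, 32 (38.6% of the 83) lay inside the receptor gene and 20 only inside non-coding genes, and Chrm3 alone held 21 of the 52. No Gs-coupled peak lay more than 100 kb away (0 of 52, up to 6.88%). Median maxima were 107 (86 to 130) for Gs-coupled, 97 (79 to 110) for Gi-coupled, 89 (84 to 109) for Gq-coupled and 93 (75 to 102) for channel peaks, with intervals that overlap.

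Fast neurotransmitter receptors gave a comparison. The 449 peaks of glutamate receptor genes had 7.80% (5.66 to 10.6) within 1 kb and the 188 peaks of GABA and glycine receptor genes 11.2% (7.42 to 16.5), both overlapping the interval of the 244. Intronic shares were higher, at 55.5% (50.8 to 60.0) and 56.4% (49.2 to 63.3), against 35.7% here. The median gene lengths were 298.303 and 89.6075 kb, against 18.174 kb. A near peak was assigned to 18 of 26 glutamate receptor genes and 11 of 26 GABA and glycine receptor genes, against 23 of 46. No test of these differences was made.

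Other genes of the same transmitter systems were counted in the same way: those for synthesis, transport and breakdown, muscle-type nicotinic subunits, nicotinic receptor assembly, histamine and trace amine receptors, G proteins and effectors. Of these 48 genes, 27 had an assigned peak within 1 kb (56.2%, 42.3 to 69.3), against 42.2% of protein-coding genes. A graded near peak was assigned to 20 (41.7%, 28.8 to 55.7), against 28.6%. The median length of the 48 genes was 42.989 kb, against 17.318 kb for all protein-coding genes. These differences, and the part of gene length in them, were not tested. The 27 included 6 of 7 synthesis genes, all but Chat. Th, the rate-limiting enzyme of catecholamine synthesis, was at 126 and Tph2, that of brain serotonin synthesis, at 195. Of the 7, only Tph2 and Dbh (52) had a graded near peak (28.6%). The near peaks of Th, Ddc, Pnmt and Tph1 were of constant height. The 27 also included 2 of 7 transporters, Slc18a3 (134) and Slc6a4 (17, of constant height). Among 5 breakdown enzymes they included 2, the acetylcholinesterase gene Ache at 250 and Maoa at 167. They also included 1 of 3 muscle-type subunits (Chrne, 230), 2 of 4 assembly genes (Tmem35a and Lynx1) and 2 of 5 histamine and trace amine receptors (Hrh1 and Hrh2). Downstream of the receptors, 6 of 8 G protein alpha subunits and 6 of 9 effectors had a near peak, among them Gnai2 at 345, Adcy9 at 244 and Adcy5 at 209. The value of Gnai2 was above that of every near receptor peak, of which Adrb1 had the highest (281).

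The base composition of receptor peaks followed their position. Windows of 200 bp at the maximum had a median GC content of 48.5% (47.5 to 50), against 49.0% for all peaks and 45.2% in the flanks 1000 bp to either side. Near the TSS the median was 57.2% (53.5 to 59.0) with 7 CpG, against 57% and 6 for all near peaks. Beyond 1 kb, graded peaks had 51.0% and constant-height peaks 46%, against 50.5% and 46.5% in the list. At least 50% of the window was repeat-masked for 32 receptor peaks (13.1%) and 15.7% of all peaks.

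**Figure D5:**
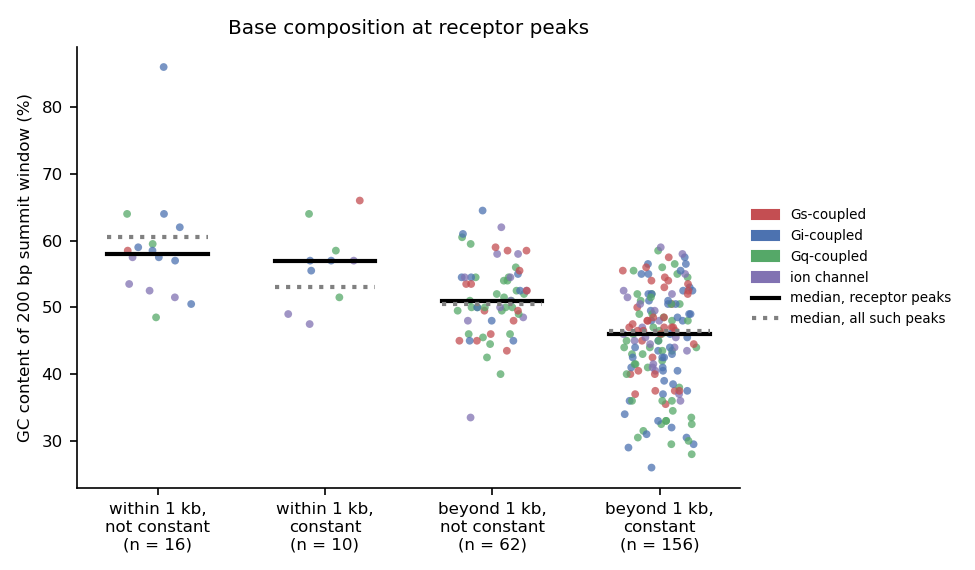
GC content (%) of the 200 bp window at the maximum of each receptor peak, by distance and shape, coloured by signalling class. Black lines are medians of the receptor peaks and dotted lines medians of all peaks of the same kind. The 156 constant-height peaks beyond 1 kb have a median of 46%, and the 16 graded peaks within 1 kb one of 58.0%, with Adra2c highest at 86.0%.

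The RefSeq promoter table for GRCm38.p6, which spans 250 bp before to 50 bp after each gene start, held 40 promoters of 35 receptor genes. A peak overlapped 14 of the 40 (35.0%), each of a different gene, against 22.9% of 32851 promoters. No interval was calculated for this share, which rests on few promoters, so no excess is claimed. The 14 had a median GC content of 61.5% with 18 CpG and the other 26 one of 58.5% with 13 CpG. In the whole table these were 62.0% with 21 CpG and 50.3% with 5 CpG. Receptor promoters without a peak were thus richer in CpG than other promoters without a peak, and Htr7 (46 CpG), Drd5 (38) and Chrna7 (35) were the extremes.

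PARIS has been reported to bind the insulin response sequence, taken here as TATTTTT or TATTTTG on either strand (AAAAATA or CAAAATA on the other). It was present in 29 of 244 receptor windows (11.9%, 8.40 to 16.5), in 10.7% of the windows 1000 bp away, and in 9.95% of all windows, whose flanks had 13.6%. Among the 26 near peaks 1 window held it (3.85%, 0.682 to 18.9), against 5.40% of all near peaks. It was in 24 of 166 constant-height peaks (14.5%) and 5 of 78 graded peaks (6.41%), against 11.7% and 7.0% in the list. Among RefSeq promoters, 2 of 40 of receptor genes held it, those of Htr2a and Htr3b, against 11.3% of all promoters.

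Some of these matches are shown to let their contexts be compared, on the strand of the gene and with the match in capitals. Adra1b at -164 bp (chr11:43836713-43836773) is the only match near a TSS, and Adra1a at -107992 bp (chr14:66527168-66527228) the only one in a peak of the top 10%. The others are Adrb1 at 5491 bp (chr19:56727677-56727737), Adra2c at -62355 bp (chr5:35215737-35215797), Htr1a at 693901 bp (chr13:106137664-106137724) and Htr2c at -226507 bp (chrX:146735870-146735930).
Adra1b: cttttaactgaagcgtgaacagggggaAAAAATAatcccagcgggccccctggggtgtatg
Adra1a: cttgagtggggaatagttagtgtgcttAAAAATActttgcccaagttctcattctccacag
Adrb1: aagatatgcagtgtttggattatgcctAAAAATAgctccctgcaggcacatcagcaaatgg
Adra2c: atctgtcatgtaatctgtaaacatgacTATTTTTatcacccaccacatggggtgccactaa
Htr1a: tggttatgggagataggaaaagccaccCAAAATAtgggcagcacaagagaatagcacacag
Htr2c: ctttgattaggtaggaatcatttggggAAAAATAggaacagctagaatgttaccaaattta
The maxima of these peaks were 88 for Adra1b, 238 for Adra1a, 147 for Adrb1, 58 for Adra2c, 116 for Htr1a and 115 for Htr2c. A match of 7 bases is a description of the letters and not a binding site.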

How the data were processed

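The series holds 1 anti-FLAG and 1 IgG CUT&Tag library of mouse hippocampus. Per the labels' protocols, the authors aligned trimmed reads to mm10 (Bowtie2), filtered out duplicates and low-quality reads, and called SEACR peaks against IgG. Tool versions and SEACR settings are not given in the sources used here. The deposited peak list gives the authors' total and maximum signal per peak in coverage units whose scaling is not stated. The deposited annotation table gives each peak's gene and distance to its TSS.

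Members were taken by gene symbol. Peaks were joined to GRCm38.p6, GENCODE M21 and RefSeq promoters. For 99.0% of annotated peaks the assigned transcript is in GENCODE M21. Shares carry Wilson 95% intervals and medians binomial order-statistic intervals. Functions were tested on simulated data. Signalling classes are textbook knowledge. The members, lists, marker genes, named-gene rule (per family the gene with most peaks and highest signal, every gene with a near or no peak) and the constant-height threshold were chosen with earlier results of these data known. Python 3.11.15, pandas 2.3.3 and pysam 0.24.0 were used. The alternatives were stricter or merged peak sets, other distances, assignment by gene body, a looser shape threshold, wider windows and mean signal. Some single genes enter the counts and are not reported here by name.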

Additional observations from a re-analysis of the deposited data

How the results depend on the processing

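Of 51 values under alternatives for 8 results, 27 stayed close (counts within 1.5 times, shares and medians within the 95% interval of the reported value) and 24 moved. Whether a result changed direction was not scored. Peaks above the median maximum left 112 receptor peaks, 12 genes with a peak within 1 kb, a median maximum of 133 and 61.6% of constant height. Over all peaks above that median, the median maximum was 135 and 50.9% had constant height. That share of the list lay below the receptor interval (52.4 to 70.1), which counts each peak singly. The difference was not tested. The top 10% of all peaks by maximum left 16 peaks in 12 genes, with a median maximum of 222 and 53.0% GC. Of the 16, 25% lay within 1 kb (4 genes), 0% had constant height and 6.25% held the insulin response sequence. Of all peaks in the top 10%, 32.2% lay within 1 kb, 0.139% had constant height and 5.96% held the sequence. Their median maximum was 239, with 54.5% GC. Leaving out constant-height peaks left 78, of which 20.5% lay within 1 kb (14 genes) and 6.41% held the sequence, with a median maximum of 123.5 and 52.5% GC. The same filter left 23.2% of all peaks within 1 kb, inside the receptor interval. The receptor interval likewise spans the share of all peaks above the median maximum (6.91 to 18.9, against 18.5%) and at least 200 bp wide (9.39 to 19.6, against 17.2%), so the lower near-TSS share of the receptors depends on the peaks included. Peaks at least 200 bp wide gave 58.3% of constant height (50.9 to 65.3), against 52.5% of all such peaks. Their median maximum was 86 (79 to 96), against 96. Within 3 kb of a TSS lay 15.6% of peaks. Gene bodies of the receptors overlapped 122 peaks. Windows of 400 bp held the sequence in 21.3%, and total signal divided by width had a median of 83.0. The stricter sets hold fewer peaks by construction, the wider limits include more, and the rest of the causes were not tested. No paired analysis was possible because each antibody has 1 library. Depth is unknown, so how it limits low peaks could not be judged.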
